A study of Danio rerio with 20 samples.

Results

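The regeneration response of sp7+ cells was compared gene by gene with that of sp7- cells from the same zebrafish caudal fins. For each gene the difference in change was taken as its log2 change in sp7+ cells (4 over 0 days post amputation, dpa) minus its log2 change in sp7- cells, so a positive difference means a greater increase or a smaller decrease in sp7+ cells. The comparison used the 8 libraries of sorted cells among the 20 libraries of the series, and 18641 of 32105 counted genes passed the filter on low counts. The groups were sp7+ cells of the regenerating blastema (4 dpa), sp7+ cells of the uninjured fin (0 dpa), sp7- cells of the blastema and sp7- cells of the uninjured fin, with 2 libraries each. All came from adult Tg(sp7:EGFP) fish, in which sp7 regulatory regions drive EGFP, and the 2 populations were separated by fluorescence-activated cell sorting. Each library came from pooled fins, and the methods describe both populations of a replicate as sorted from the same collection of fins. Blastema was tissue beyond the amputation plane, dissociated with a longer TrypLE step and no Liberase, whereas uninjured fins were treated with TrypLE and then Liberase. Tissue and dissociation therefore cannot be told apart from time within a population.

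Zebrafish rebuild an amputated fin from a blastema, a mass of proliferating cells under a wound epidermis. Osteoblasts that line the bony fin rays lose part of their mature character after amputation, divide, and later restore bone, and they give rise to bone and not to other tissues. sp7 (osterix) encodes a zinc finger transcription factor of the osteoblast lineage. The sp7- population holds the remaining fin cells, chiefly epidermis together with fibroblasts, vessels, nerves and pigment cells. Leukocyte transcripts were found in both populations, as given below.

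The libraries held 28906309 to 50312755 counts, and log2 levels of the 2 libraries of a group correlated across genes with r between 0.974 and 0.992. sp7 itself was at 74.1 and 113 CPM (counts scaled to library size with TMM factors) in sp7+ cells at 4 dpa and 30 and 31.9 CPM at 0 dpa, against 1.38 and 1.17 CPM at 4 dpa and 0.252 and 0.145 CPM at 0 dpa in sp7- cells, so every sp7+ library lay above every sp7- library. Summed levels of 15 osteoblast markers were 47915 and 70625 CPM in sp7+ cells at 4 dpa and 5541 and 15110.2 CPM at 0 dpa, against 2269.9 and 3221 CPM at 4 dpa and 86.2 and 109 CPM at 0 dpa in sp7- cells. The sp7+ libraries also carried epidermal transcripts: 23 epidermal markers summed to 31412 and 33095 CPM at 4 dpa and 131286 and 111553 CPM at 0 dpa, against 55330.5 and 69553 CPM at 4 dpa and 150496 and 157353 CPM at 0 dpa in sp7- cells. At 0 dpa the epidermal sum exceeded the osteoblast sum in both sp7+ libraries, which goes against a pure osteoblast population, so the cells are called sp7+ here. Leukocyte markers summed higher in sp7+ than in sp7- libraries at both times. At 0 dpa their sums were 24224 and 18387 CPM in sp7+ cells, above the osteoblast sums, against 5062 and 5093 CPM in sp7- cells. The epidermal sum was lower at 4 dpa than at 0 dpa in both populations. Its part in the differences described below was not tested. In bulk RNA, fewer cells of a type and less RNA per cell cannot be told apart.

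The change differed between the populations for 1474 genes (7.91% of those tested) by edgeR's quasi-likelihood test at a Benjamini-Hochberg adjusted p below 0.05. Of these, 869 genes (4.66%) had the higher change in sp7+ cells and 605 (3.25%) the lower. The median difference over all tested genes was 0.12 on the log2 scale, with quartiles of -0.49 and 0.78. The fit behind these calls did not pair the populations of a replicate. A fit that paired them by a block within each time point called 3391 genes (18.2%), 1977 higher (10.6%) and 1414 lower (7.59%). These included all 1474. With DESeq2's size factors in place of TMM the split was 815 higher and 771 lower. The count depended on single libraries: it was 751 and 694 without sp7+ 4 dpa library 1 and library 2, 974 and 2553 without sp7+ 0 dpa library 1 and library 2, 227 and 226 without sp7- 4 dpa library 1 and library 2, and 1040 and 752 without sp7- 0 dpa library 1 and library 2. Counts of list members called without 1 library, given below, are to be read beside these totals over all genes. A stricter test against a 1.5-fold difference called 411 genes, 250 higher and 161 lower.

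**Figure D1:**
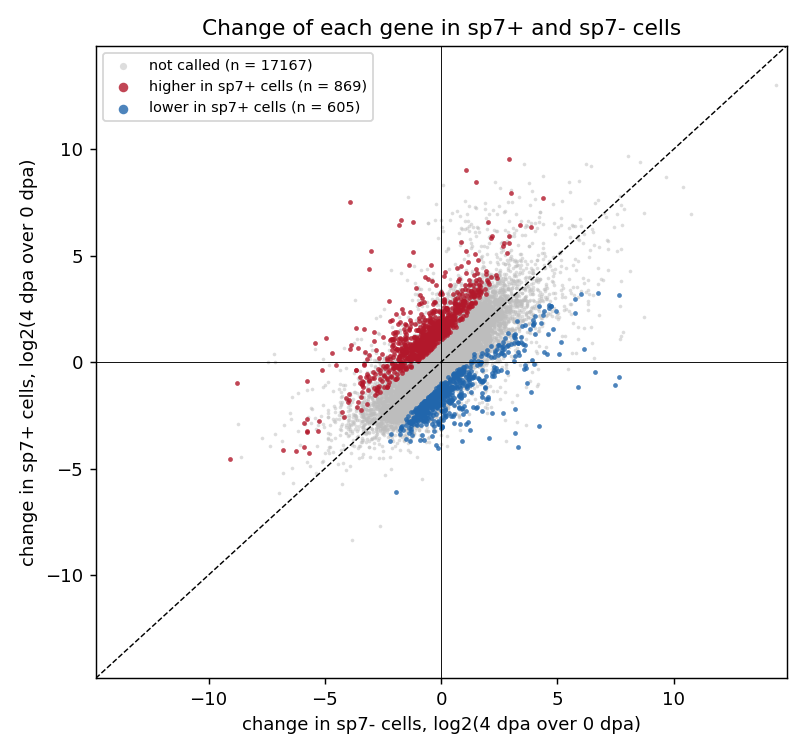
Log2 change (4 over 0 dpa) of each of 18641 genes in sp7+ cells (vertical axis) against that in sp7- cells (horizontal axis), 1 point a gene. Points above the dashed line of equal change had the higher change in sp7+ cells, and the 869 and 605 genes past the test lie on either side of it.

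Many called genes had fitted changes of opposite sign. The most frequent class, 488 genes, had a positive fitted change in sp7+ cells and a negative one in sp7- cells, and 249 genes showed the reverse. A further 264 genes rose more in sp7+ cells, 117 fell less there, 273 fell more and 83 rose less, by fitted values. For 166 genes (0.891%) the difference and both changes passed the test with opposite signs, 113 increased in sp7+ cells and decreased in sp7- cells, and 53 the reverse. Of the 869 genes with the higher change, 817 (94.0%) were lower in sp7+ than in sp7- cells at 0 dpa, against 52.3% of all tested genes. Of the 605 with the lower change, 592 (97.9%) were higher in sp7+ cells then, against 47.5% of all tested genes. The median log2 ratio of sp7+ over sp7- cells was -0.01 at 4 dpa and -1.70 at 0 dpa for the first set, and 0.11 at 4 dpa and 1.77 at 0 dpa for the second. Levels of the populations were closer at 4 dpa than at 0 dpa for 745 and 527 genes of these sets, 85.7% and 87.1%, and for 69.3% of all tested genes. These counts and ratios share their libraries with the test. Levels at both time points enter the difference itself, so a called gene has to be apart at 1 of them at least. Why the gap lay mostly at 0 dpa was not tested. The values are a description.

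**Figure D2:**
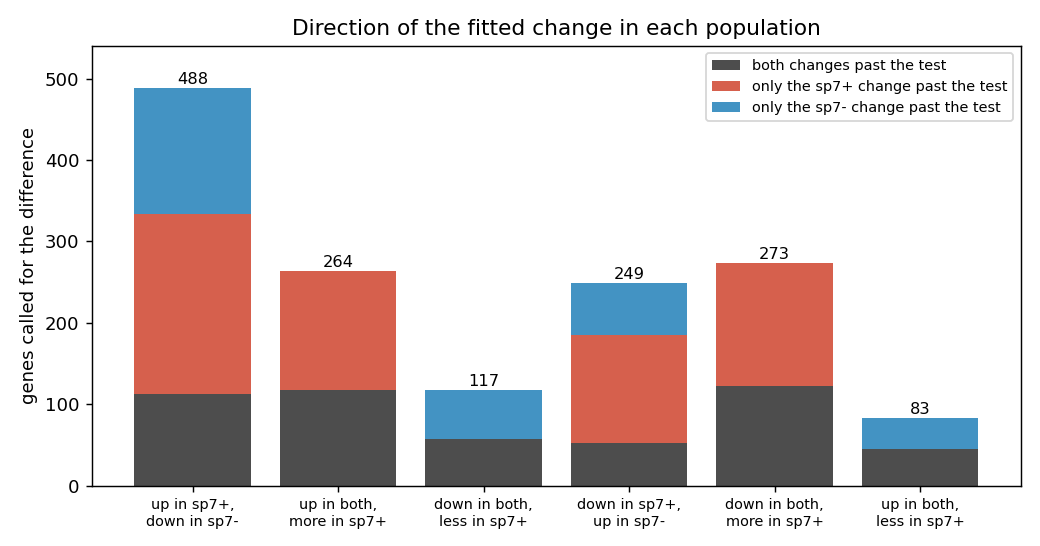
Number of called genes (vertical axis) in each class of fitted change in sp7+ and sp7- cells; shading shows in which population the change itself passed the test. Opposite fitted directions make up 488 and 249 of the 1474 genes.

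The 10 largest positive differences among genes that met the naming conditions, stated under processing, are given gene by gene. Those conditions include a mean of 1 CPM or more at a time point in each population. Called genes outside them can have larger differences. pcolcea, the procollagen C-proteinase enhancer that speeds collagen maturation, was at 131 and 88.7 CPM in sp7+ cells at 4 dpa and 3.02 and 6.18 CPM at 0 dpa, against 8.43 and 8.71 CPM at 4 dpa and 8.84 and 14 CPM at 0 dpa in sp7- cells. The sp7+ 4 dpa libraries lay far above all others, and the difference was 4.99 ± 0.48 (approximate SE, derived as stated under processing) on the log2 scale (edgeR adjusted p = 0.00068). wu:fc46h12, for which no role is given, was at 224 and 151 CPM in sp7+ cells at 4 dpa and 62.5 and 79.5 CPM at 0 dpa, against 0.326 and 1 CPM at 4 dpa and 4.03 and 5.7 CPM at 0 dpa in sp7- cells, and differed by 4.29 ± 0.55 (edgeR adjusted p = 0.00184). It increased in sp7+ cells and decreased in sp7- cells, both past the test. The same held for NOCT, which encodes the clock-regulated enzyme nocturnin (2.27 in sp7+ and -1.95 in sp7- cells, difference 4.22 ± 0.50, edgeR adjusted p = 0.0014). It held too for fgf13b, an intracellular Fgf-homologous factor, which was at 2.64 and 3.65 CPM in sp7+ cells at 4 dpa and 0 and 0.159 CPM at 0 dpa, against 0.683 and 0.511 CPM at 4 dpa and 1.1 and 1.67 CPM at 0 dpa in sp7- cells (edgeR adjusted p = 0.00174). Its difference of 6.39 ± 0.79 rested on those near-zero sp7+ 0 dpa libraries, and was 5.48 without library 1 and 11.37 without library 2 of that group. foxl1, a forkhead transcription factor, was at 3.16 and 2.51 CPM in sp7+ cells at 4 dpa and 1.64 and 1.99 CPM at 0 dpa, against 0.0932 and 0.11 CPM at 4 dpa and 1.23 and 1.26 CPM at 0 dpa in sp7- cells. Here the difference of 4.23 ± 0.51 (edgeR adjusted p = 0.0015) lay in the sp7- 4 dpa libraries, which were the lowest. iffo2a, an intermediate filament family gene, differed by 3.84 ± 0.43 (edgeR adjusted p = 0.0012), with a change of 3.64 in sp7+ and -0.20 in sp7- cells. fabp1b.2, a fatty acid binding protein gene, fell in both populations, with changes of -4.56 in sp7+ and -9.10 in sp7- cells (edgeR adjusted p = 0.0235 for the difference). pabpc4, a poly(A) binding protein gene, was at 14.3 and 18.2 CPM in sp7+ cells at 4 dpa and 0.0888 and 0.0399 CPM at 0 dpa, against 2.61 and 2.52 CPM at 4 dpa and 0.409 and 0.241 CPM at 0 dpa in sp7- cells (edgeR adjusted p = 0.00259). It and the remaining 2 of the 10, anxa6 (annexin A6) and slx4ip, had at most 3 counts per library in sp7+ cells at 0 dpa, so their fitted sizes are not given. The calls held in every fit that left out 1 library, except that fabp1b.2 lost it without sp7- 0 dpa library 2, sp7- 4 dpa library 1 or sp7+ 4 dpa library 1, and anxa6 without sp7- 0 dpa library 2 or sp7- 4 dpa library 2 (edgeR adjusted p up to 0.121 and 0.108).

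The 10 largest negative differences under the same conditions follow. bglapl, an osteocalcin-like gene of mature osteoblasts, was at 35.1 and 34.4 CPM in sp7+ cells at 4 dpa and 225 and 868 CPM at 0 dpa, against 3.32 and 4.02 CPM at 4 dpa and 0.252 and 0.459 CPM at 0 dpa in sp7- cells. It decreased in sp7+ cells (-3.98) and increased in sp7- cells (3.32), and the difference of -7.30 ± 0.77 (edgeR adjusted p = 0.00108) was the lowest of the named genes, yet sp7+ libraries stayed above sp7- libraries at both times. col14a1a, a collagen XIV chain that associates with fibrils, was at 19.7 and 27.1 CPM in sp7+ cells at 4 dpa and 30.5 and 75.8 CPM at 0 dpa, against 53.7 and 89.6 CPM at 4 dpa and 1.45 and 0.99 CPM at 0 dpa in sp7- cells. The order of the populations turned over between the time points, and the difference was -7.08 ± 0.61 (edgeR adjusted p = 0.000372). prg4a, which encodes the lubricant proteoglycan lubricin, was at 11.9 and 14.7 CPM in sp7+ cells at 4 dpa and 682 and 1156 CPM at 0 dpa, against 6.83 and 6.61 CPM at 4 dpa and 29.5 and 22.2 CPM at 0 dpa in sp7- cells. It fell in both, with changes of -6.11 in sp7+ and -1.94 in sp7- cells and a difference of -4.17 ± 0.40 (edgeR adjusted p = 0.00068). ARHGAP28, a GTPase activating protein gene, was at 54.6 and 38.4 CPM in sp7+ cells at 4 dpa and 387 and 313 CPM at 0 dpa, against 6.82 and 7.03 CPM at 4 dpa and 3.11 and 3.38 CPM at 0 dpa in sp7- cells (difference -4.00 ± 0.34, edgeR adjusted p = 0.000372). nog3, a secreted BMP antagonist of the noggin family, was at 2.08 and 2.17 CPM in sp7+ cells at 4 dpa and 7.1 and 13.8 CPM at 0 dpa, against 2.28 and 3.61 CPM at 4 dpa and 1.13 and 0.652 CPM at 0 dpa in sp7- cells (difference -4.04 ± 0.54, edgeR adjusted p = 0.00244). For both genes the sp7+ 0 dpa libraries were the highest and the sp7- change was positive. cd248b (endosialin, a surface protein of mesenchymal cells) rose in both populations, by 3.15 in sp7+ and 7.63 in sp7- cells (difference -4.48 ± 0.59, edgeR adjusted p = 0.0023). acta1a (a muscle actin) differed by -5.35 ± 0.74 (edgeR adjusted p = 0.0028), and cntn5 (a contactin, a neural adhesion molecule) by -4.65 ± 0.71 (edgeR adjusted p = 0.00446), both at a few CPM at most. OTTDARG00000042301, without a role here, had a difference of -6.49 ± 0.51 (edgeR adjusted p = 0.000372). ncam1b, a neural adhesion molecule gene, had at most 3 counts per library in sp7- cells at 0 dpa and is given by its levels, 4.15 and 5.79 CPM in sp7+ cells at 4 dpa and 2.17 and 2.91 CPM at 0 dpa, against 1.29 and 1.86 CPM in sp7- cells at 4 dpa (edgeR adjusted p = 0.0071). All 10 calls held in every fit that left out 1 library.

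**Figure D3:**
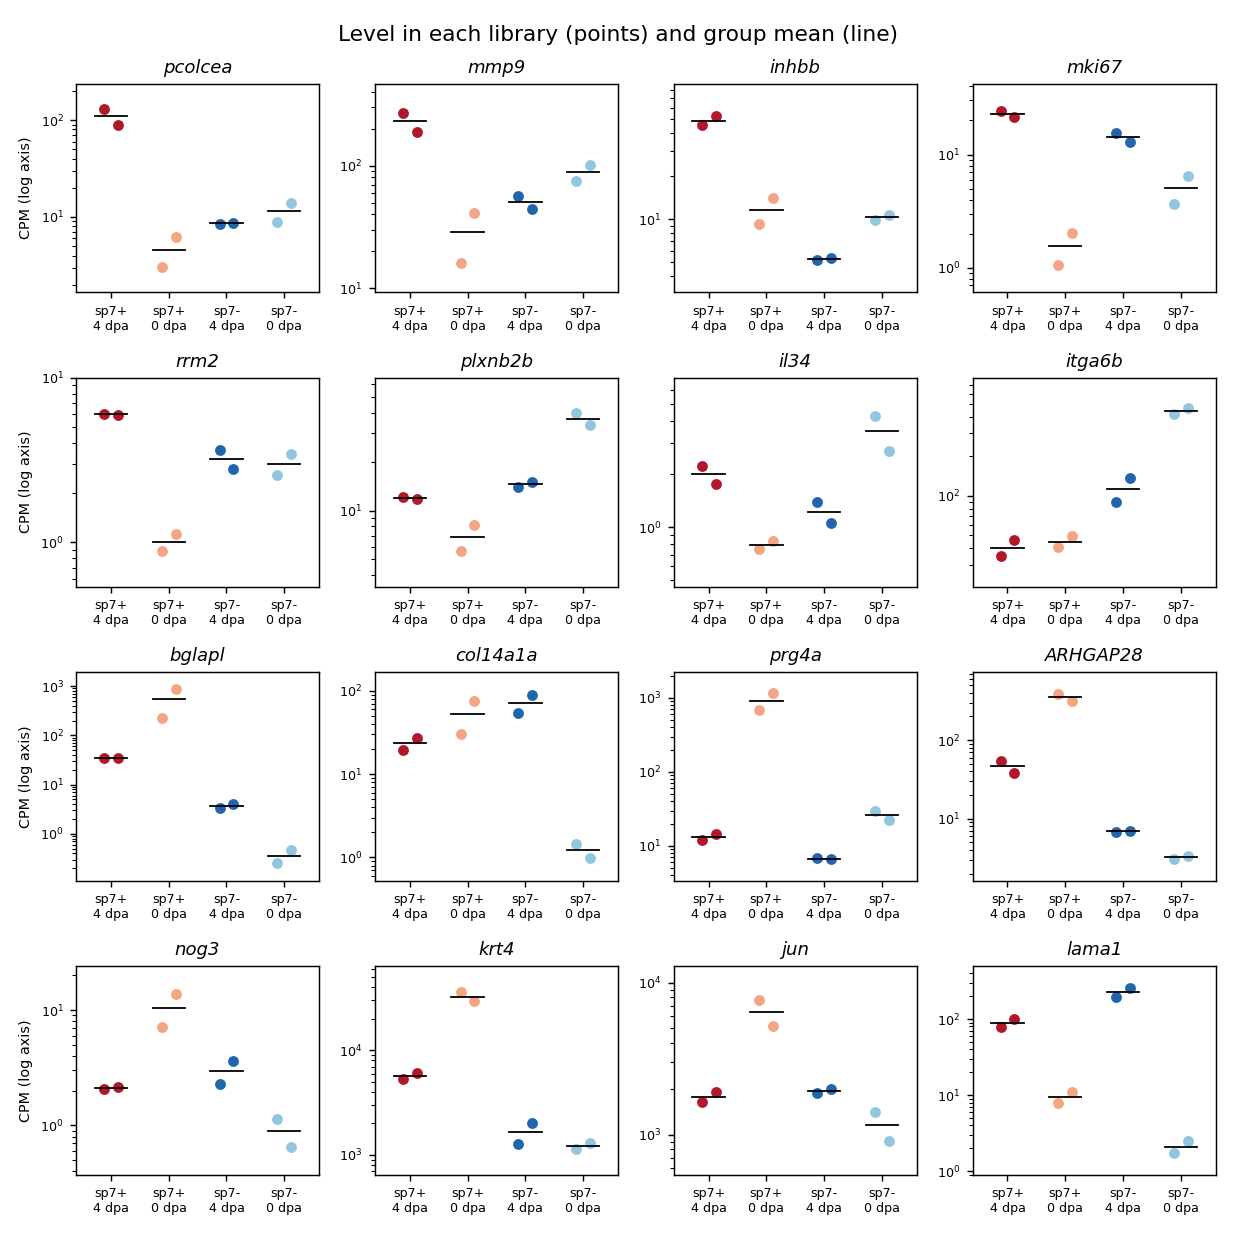
Level of 16 genes in CPM (log axis) in each library (points) of the 4 groups, sp7+ 4 dpa, sp7+ 0 dpa, sp7- 4 dpa and sp7- 0 dpa, with group means as lines. In the upper 8 panels the change (4 over 0 dpa) is higher in sp7+ than in sp7- cells, and in the lower 8 panels it is lower.

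Genes of opposite change past all 3 tests included 3 more with a positive difference. HS6ST3 and hs3st3b1a encode heparan sulfate sulfotransferases, which modify the sugar chains that hold growth factors at the cell surface. HS6ST3 was at 3.65 and 3.77 CPM in sp7+ cells at 4 dpa and 0.71 and 1.43 CPM at 0 dpa, against 0.466 and 0.31 CPM at 4 dpa and 1.92 and 0.942 CPM at 0 dpa in sp7- cells (difference 3.62 ± 0.61, edgeR adjusted p = 0.00757). hs3st3b1a differed by 3.62 ± 0.60 (edgeR adjusted p = 0.00705), with changes of 1.87 in sp7+ and -1.75 in sp7- cells. blnk, an adaptor of B cell receptor signaling in mammals, differed by 3.70 ± 0.54 (edgeR adjusted p = 0.00362), with changes of 2.74 and -0.96. These 3 calls held without each library.

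Most mitosis genes increased in both populations, and 19 had the higher change in sp7+ cells past the test. Of 57 tested mitosis genes, which act in chromosome condensation, the spindle and its checkpoint, 54 increased in sp7+ and 47 in sp7- cells, against 30.0% and 22.2% of all tested genes. The median change was 3.29 in sp7+ and 1.62 in sp7- cells. The difference was positive for 56 of the 57, with a median of 1.69 against 0.12 for all genes, and the 19 called were 33.3% of the list, against 4.66% of all genes called higher. The block within time points called 37, all higher, against 10.6% of all genes called higher under it. mki67, a marker of cycling cells, was at 24.1 and 21.6 CPM in sp7+ cells at 4 dpa and 1.07 and 2.03 CPM at 0 dpa, against 15.5 and 12.9 CPM at 4 dpa and 3.65 and 6.47 CPM at 0 dpa in sp7- cells. The sp7+ libraries were above both sp7- libraries at 4 dpa and below them at 0 dpa, and the difference was 2.39 ± 0.46 (edgeR adjusted p = 0.0126). tpx2, a spindle assembly factor, was at 26.9 and 29.5 CPM in sp7+ cells at 4 dpa and 0.71 and 2.11 CPM at 0 dpa, against 23.7 and 22.5 CPM at 4 dpa and 4.97 and 7.03 CPM at 0 dpa in sp7- cells (difference 2.36 ± 0.49, edgeR adjusted p = 0.0172). bub1bb, a spindle checkpoint kinase gene, was at 3.82 and 4.45 CPM in sp7+ cells at 4 dpa and 0.0888 and 0.0797 CPM at 0 dpa, against 3.29 and 3.1 CPM at 4 dpa and 0.44 and 0.41 CPM at 0 dpa in sp7- cells (edgeR adjusted p = 0.024), with at most 3 counts per library in sp7+ cells at 0 dpa. Without single libraries the number of called mitosis genes ran from 0 (without sp7- 4 dpa library 2) and 1 (without library 1 of that group) to 34 (without sp7+ 0 dpa library 2), while the median difference stayed between 1.22 and 2.01 over all settings tried. mki67 lost its call without sp7- 4 dpa library 2 (0.0731 at most), tpx2 without either sp7- 4 dpa library, and bub1bb kept it in 2 of 8 such fits.

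Of 53 tested DNA replication genes, 43 increased in sp7+ cells and 12 in sp7- cells, against 30.0% and 22.2% of all tested genes, with median changes of 1.86 and 0.40. The median difference was 1.36, and 17 genes were called higher and 1 lower (34.0%, against 7.91% of all genes). With the block within time points these were 25 and 1, against 10.6% and 7.59% of all genes. rrm2, a subunit of ribonucleotide reductase, which makes deoxynucleotides, was at 6.06 and 5.91 CPM in sp7+ cells at 4 dpa and 0.888 and 1.12 CPM at 0 dpa, against 3.65 and 2.79 CPM at 4 dpa and 2.55 and 3.43 CPM at 0 dpa in sp7- cells. The sp7- libraries of the 2 time points overlapped, and the difference was 2.47 ± 0.41 (edgeR adjusted p = 0.0071). rpa2, a subunit of the single-strand DNA binding complex, was at 23.7 and 21.6 CPM in sp7+ cells at 4 dpa and 3.33 and 6.54 CPM at 0 dpa, against 23.2 and 22.7 CPM at 4 dpa and 17.9 and 26.4 CPM at 0 dpa in sp7- cells (difference 2.15 ± 0.42, edgeR adjusted p = 0.0135). It too was low only in sp7+ cells at 0 dpa. fen1, the flap endonuclease of lagging strand synthesis (2.41 ± 0.56, edgeR adjusted p = 0.0247), PRIM1, the primase (2.25 ± 0.54, edgeR adjusted p = 0.0286), and tyms, thymidylate synthase (2.20 ± 0.61, edgeR adjusted p = 0.0461), differed in the same direction. The 1 gene called lower was mcm3, a subunit of the replicative helicase, which decreased in sp7+ cells (-1.74) and had a change of -0.22 in sp7- cells (difference -1.52 ± 0.29, edgeR adjusted p = 0.0129). Of 12 tested genes with an mcm symbol, 4 were called higher and 1 lower (41.7%). The lower one, mcm3, was chosen after its values were seen. Called genes numbered from 0 (without sp7- 4 dpa library 2) and 2 (without library 1 of that group) to 26 (without sp7+ 0 dpa library 2), and the median stayed between 1.1 and 1.65 over all settings. rrm2 lost its call without sp7- 4 dpa library 2, rpa2 and mcm3 without either sp7- 4 dpa library, and fen1, PRIM1 and tyms kept theirs in 3, 2 and 2 of the 8 fits. tyms also lost it with a filter of 10 counts in 4 libraries.

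Ribosomal protein genes had a positive difference for all but 2. Few were called by edgeR without a block, and most were called with the block within time points. Of 80 tested, 2 decreased in sp7+ cells and 74 in sp7- cells, against 26.4% and 23.3% of all tested genes, and the median changes were -0.02 in sp7+ and -0.97 in sp7- cells. The difference was positive for 78 of the 80, with a median of 0.97. Of the 80, 7 were called higher and 0 lower, a share of 8.8% that is near the 7.91% over all genes. The block within time points called 66 higher and 0 lower, against 10.6% and 7.59% of all genes. DESeq2 called 31, with 2071 genes called in total. The unadjusted edgeR p was under 0.05 for 67, and for 4763 of all 18641 genes. RPS14, of the small subunit, was at 1116 and 1194 CPM in sp7+ cells at 4 dpa and 1021 and 1051 CPM at 0 dpa, against 1146 and 1293 CPM at 4 dpa and 2486 and 2537 CPM at 0 dpa in sp7- cells. Only the sp7- 0 dpa libraries stood apart, and the difference was 1.2 ± 0.30 (edgeR adjusted p = 0.0348). RPL12, of the large subunit, had the same shape (1.28 ± 0.29, edgeR adjusted p = 0.0238). The 2 that increased in sp7+ cells were RPL22L1 and RPL7L1, paralogs of core ribosomal proteins, and RPL7L1 decreased in sp7- cells as well (1.21 against -0.84, edgeR adjusted p = 0.0117 for the difference). RPS14 lost its call with DESeq2's size factors and in 7 of the 8 fits without 1 library, RPL12 in 4, RPL7L1 in 2 and RPL22L1 in 1. The number called fell to 1 and 0 without sp7- 4 dpa library 1 and library 2 and was 10 without sp7+ 0 dpa library 2. Genes of oxidative phosphorylation had a median difference of 0.39, with 3 of 101 called (3%, below the 7.91% of all genes). NDUFAF4, an assembly factor of complex I, was higher (1.5 ± 0.39, edgeR adjusted p = 0.039). Of complex IV subunits, cox6b2 was higher (1.23 ± 0.28, edgeR adjusted p = 0.0233) and cox6b1 lower (-1.24 ± 0.32, edgeR adjusted p = 0.0367). Each of the 3 kept its call in 2 or 3 of the 8 fits without 1 library.

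**Figure D4:**
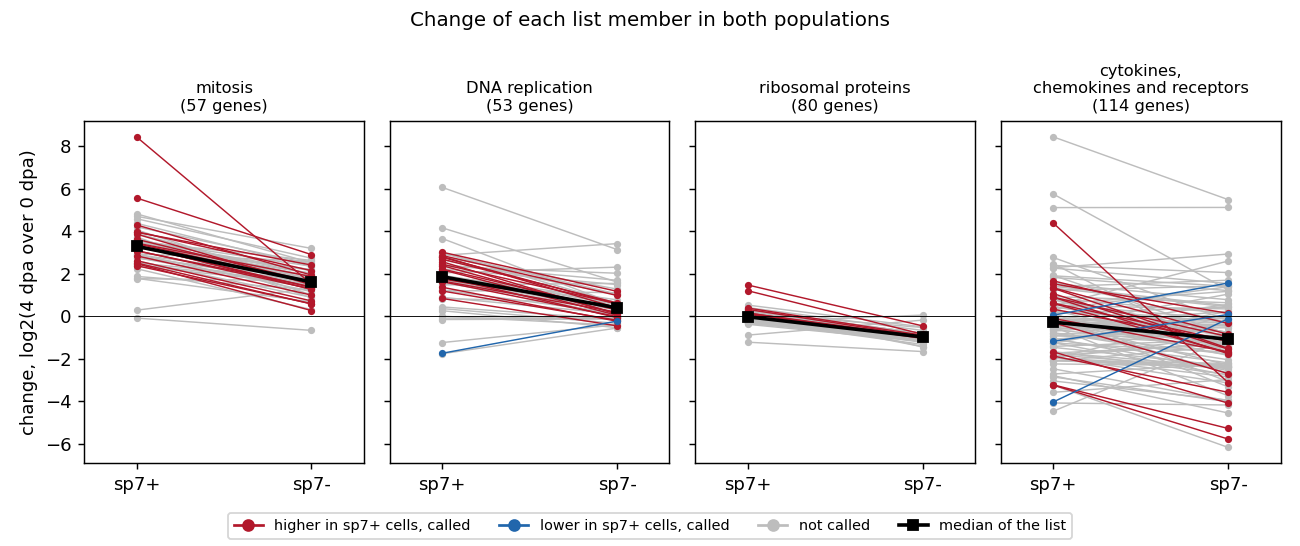
Log2 change (4 over 0 dpa, vertical axis) of each tested member of 4 gene lists in sp7+ and sp7- cells, 1 line a gene, with the list's median in black. Most mitosis and replication lines lie higher in sp7+ cells, and ribosomal protein lines run from a median of -0.02 in sp7+ to -0.97 in sp7- cells.

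Bone formation genes had a negative median difference, but few were called by edgeR without a block. Of 34 tested bone formation genes, 22 increased in sp7+ and 20 in sp7- cells, against 30.0% and 22.2% of all tested genes. The median difference was -0.59, and 3 were called (1 higher, 2 lower), 8.8% against 7.91% of all genes. The block within time points called 10 (1 higher, 9 lower), against 10.6% of all genes higher and 7.59% lower. Beside bglapl, SLC20A1, a phosphate importer, was lower, at 3.22 and 1.78 CPM in sp7+ cells at 4 dpa and 6.7 and 10.5 CPM at 0 dpa, against 1.2 and 1.08 CPM at 4 dpa and 0.818 and 0.942 CPM at 0 dpa in sp7- cells (difference -2.13 ± 0.49, edgeR adjusted p = 0.0247). tnfrsf11b, osteoprotegerin, the decoy receptor that restrains osteoclasts, was at 65.3 and 75.3 CPM in sp7+ cells at 4 dpa and 848 and 478 CPM at 0 dpa, against 15.6 and 12.5 CPM at 4 dpa and 1072 and 473 CPM at 0 dpa in sp7- cells. It decreased in both populations and less in sp7+ cells (difference 2.54 ± 0.52, edgeR adjusted p = 0.0158). col10a1a, collagen X, was the most abundant osteoblast marker, at 33135 and 51242 CPM in sp7+ cells at 4 dpa and 1769.7 and 5613 CPM at 0 dpa, against 2133 and 3104 CPM at 4 dpa and 34.4 and 57 CPM at 0 dpa in sp7- cells. Its difference of -2.32 ± 0.66 did not pass the test (edgeR adjusted p = 0.0511) and did with the block within time points (adjusted p = 0.00066). sp7 had a difference of -1.12 ± 0.47 (edgeR adjusted p = 0.161). The 15 osteoblast markers had a median difference of -1.13, with 1 called lower (bglapl). Under that block 7 were called, all lower, against 7.59% of all genes. The sum of the 15 markers in sp7- cells at 4 dpa was above that at 0 dpa, as given above. The share of this that comes from osteoblast transcripts in the sp7- libraries was not tested. Without sp7+ 0 dpa library 1 the list had a median of -0.85 with 1 called higher and 8 lower, without library 2 of that group a median of -0.12 with 5 higher and 3 lower, and without either sp7- 4 dpa library 1 called. SLC20A1 kept its call in 3 of the 8 fits without 1 library, and tnfrsf11b lost it without either sp7- 4 dpa library.

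Among collagens, 31 of 55 tested chains increased in sp7+ and 28 in sp7- cells, against 30.0% and 22.2% of all tested genes. The median difference was 0.34 (-0.07 to 0.76 over all settings tried), with 1 called higher and 5 lower (10.9%, against 7.91% of all genes). The fibrillar collagen XI chains went both ways. col11a2 was at 1742 and 2677 CPM in sp7+ cells at 4 dpa and 222 and 608 CPM at 0 dpa, against 117 and 181 CPM at 4 dpa and 4.44 and 5.14 CPM at 0 dpa in sp7- cells. It rose in both populations and less in sp7+ cells (difference -2.55 ± 0.58, edgeR adjusted p = 0.0236), as did col11a1b (-2.07 ± 0.56, edgeR adjusted p = 0.0434). col11a1a instead rose more in sp7+ cells, at 1184 and 1857 CPM at 4 dpa and 91.6 and 198 CPM at 0 dpa, against 927 and 1064 CPM at 4 dpa and 348 and 322 CPM at 0 dpa in sp7- cells (difference 1.82 ± 0.47, edgeR adjusted p = 0.0373). col9a1a, a chain of the cartilage collagen IX, was lower (-1.99 ± 0.41, edgeR adjusted p = 0.0164). Of 41 genes that process collagen, 3 were called higher and 3 lower (14.6%). The higher ones were pcolcea, its paralog pcolceb (2.17 ± 0.46, edgeR adjusted p = 0.0188) and the procollagen proteinase gene BMP1 (2.56 ± 0.63, edgeR adjusted p = 0.0306). pcolceb fell in both populations, with changes of -1.79 in sp7+ and -3.97 in sp7- cells. The lower ones were loxa, TMEM38B, a cation channel of the endoplasmic reticulum (-1.60 ± 0.34, edgeR adjusted p = 0.0192), and adamts3, a procollagen N-proteinase chosen after its values were seen (-1.58 ± 0.38, edgeR adjusted p = 0.0298). loxa, a lysyl oxidase that cross-links collagen, was at 58.4 and 61.4 CPM in sp7+ cells at 4 dpa and 21.2 and 59.4 CPM at 0 dpa, against 101 and 93.4 CPM at 4 dpa and 6.04 and 10.4 CPM at 0 dpa in sp7- cells (difference -2.99 ± 0.55, edgeR adjusted p = 0.011). Its sp7+ libraries of the 2 time points overlapped, and the change passed the test in sp7- cells. CREB3L1, a transcription factor that drives secretory genes in bone, decreased in sp7+ cells (-1.12) and increased in sp7- cells (1.07), with a difference of -2.19 ± 0.33 (edgeR adjusted p = 0.00396). The loxa and CREB3L1 calls held without each library, whereas those of col11a2, col11a1b, col11a1a, col9a1a, pcolceb, BMP1, TMEM38B and adamts3 held in 3, 1, 2, 4, 4, 2, 4 and 4 of the 8 fits. Called collagen chains numbered from 1 (without either sp7- 4 dpa library) to 11 (without sp7+ 0 dpa library 1), and called processing genes from 2 (without either sp7- 4 dpa library) to 18 (without sp7+ 0 dpa library 2).

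Of 39 matrix metalloproteinases, ADAMTS proteases and inhibitors, 5 were called higher and 4 lower (23.1%, against 7.91% of all genes), with a median difference of -0.04 (-0.29 to 0.54 over all settings). mmp9, gelatinase B, was at 269 and 188 CPM in sp7+ cells at 4 dpa and 16 and 41.2 CPM at 0 dpa, against 56 and 44.3 CPM at 4 dpa and 75 and 101 CPM at 0 dpa in sp7- cells. The sp7+ libraries of the 2 times did not overlap, and the difference was 3.81 ± 0.53 (edgeR adjusted p = 0.0028). mmp13a, a collagenase, was at 43.4 and 40.2 CPM in sp7+ cells at 4 dpa and 10.8 and 6.38 CPM at 0 dpa, against 74.9 and 60.6 CPM at 4 dpa and 132 and 65.1 CPM at 0 dpa in sp7- cells (difference 2.82 ± 0.46, edgeR adjusted p = 0.00702). mmp11b, stromelysin 3, was at 74.5 and 72.9 CPM in sp7+ cells at 4 dpa and 0.754 and 0.917 CPM at 0 dpa, against 47.6 and 49 CPM at 4 dpa and 3.9 and 5.19 CPM at 0 dpa in sp7- cells (difference 3.05 ± 0.34, edgeR adjusted p = 0.0012). It rose in both populations, by 6.45 in sp7+ and 3.40 in sp7- cells on the log2 scale. adamts12, a metalloprotease that cuts cartilage matrix protein, was higher as well (2.04 ± 0.36, edgeR adjusted p = 0.00891). mmp20a, related to enamelysin, was under 2 CPM everywhere, and its sp7- 4 dpa libraries held at most 3 counts (edgeR adjusted p = 0.00453). The 5 higher calls held without each library, except adamts12 without sp7- 4 dpa library 1 (edgeR adjusted p = 0.0594). The 4 lower ones were named after their values were seen. They were the protease genes MMP11 (-1.75 ± 0.45, edgeR adjusted p = 0.0362), adamts6 (-1.71 ± 0.43, edgeR adjusted p = 0.0342) and adamts3, given above, and the inhibitor gene TIMP2 (-1.95 ± 0.37, edgeR adjusted p = 0.0116). The symbol TIMP2 is borne by another identifier that was not called. MMP11 shares its symbol stem with mmp11b, which was called higher. MMP11, adamts6 and TIMP2 kept their calls in 1, 1 and 7 of the 8 fits. Lower calls numbered 1 and 0 without sp7- 4 dpa library 1 and library 2, and 5 without sp7+ 0 dpa library 1, while higher calls numbered 10 without sp7+ 0 dpa library 2.

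Of 70 matrix glycoproteins and proteoglycans, 5 were called higher and 5 lower (14.3%, against 7.91% of all genes), with a median difference of 0.09 (-0.35 to 0.89 over all settings). The block within time points called 16 higher and 8 lower, against 10.6% and 7.59% of all genes. lama1, a laminin chain of basement membranes, was at 79.1 and 101 CPM in sp7+ cells at 4 dpa and 7.94 and 11.1 CPM at 0 dpa, against 195 and 259 CPM at 4 dpa and 1.73 and 2.46 CPM at 0 dpa in sp7- cells. The sp7+ libraries were below sp7- libraries at 4 dpa and above them at 0 dpa, and the difference was -3.51 ± 0.38 (edgeR adjusted p = 0.0012). matn3a, a cartilage matrilin (-2.42 ± 0.48, edgeR adjusted p = 0.0152), dcn, the proteoglycan decorin (-1.89 ± 0.47, edgeR adjusted p = 0.0321), and lamb2, another laminin chain (-1.90 ± 0.50, edgeR adjusted p = 0.039), had smaller changes in sp7+ cells too. fbln1, fibulin 1, was among the 5 called higher, with a change of 3.59 in sp7+ and 1.69 in sp7- cells (difference 1.90 ± 0.40, edgeR adjusted p = 0.0182). Genes named here had the largest absolute differences of the list, so most of the 5 higher ones are not named. Among 21 tested markers of fibroblasts and blastema mesenchyme, 18 increased in sp7+ and 19 in sp7- cells, against 30.0% and 22.2% of all tested genes. Of these markers, fbln1, dcn and prrx1b were the 3 called (14.3%). The lama1 call held without each library, and those of matn3a, dcn, lamb2 and fbln1 in 5, 3, 1 and 6 of the 8 fits. Called members numbered 1 and 2 without sp7- 4 dpa library 1 and library 2, and 21 without sp7+ 0 dpa library 2.

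Most keratin and junction genes decreased in both populations. Of 18 tested keratins, 13 decreased in sp7+ and 11 in sp7- cells, against 26.4% and 23.3% of all tested genes. Of the 18, 3 were called, all lower in sp7+ cells (16.7%, against 3.25% of all genes called lower). krt4, an epithelial keratin, was at 5326 and 6117 CPM in sp7+ cells at 4 dpa and 35992 and 29420 CPM at 0 dpa, against 1279 and 2011 CPM at 4 dpa and 1149 and 1297 CPM at 0 dpa in sp7- cells. The sp7+ 0 dpa libraries stood apart, sp7+ libraries exceeded sp7- libraries at both times, and the difference was -2.94 ± 0.40 (edgeR adjusted p = 0.00271). krt93 changed in opposite directions, at 458 and 310.0 CPM in sp7+ cells at 4 dpa and 693 and 640.2 CPM at 0 dpa, against 488 and 596 CPM at 4 dpa and 149 and 204 CPM at 0 dpa in sp7- cells (difference -2.41 ± 0.36, edgeR adjusted p = 0.00421). krt222 fell in both, with changes of -2.62 in sp7+ and -0.72 in sp7- cells (difference -1.90 ± 0.35, edgeR adjusted p = 0.0116). Of 70 junction and adhesion genes of epithelia, 48 decreased in sp7+ and 50 in sp7- cells, against the same shares of all genes. Of the 70, 4 were called higher and 3 lower (10%, against 7.91% of all genes), with a median difference of -0.25. The block within time points called 9 higher and 13 lower, against 10.6% and 7.59% of all genes. The 4 higher ones included the hemidesmosome genes itga6b and ITGB4, which encode the integrin that anchors basal cells. itga6b was at 34.9 and 45.8 CPM in sp7+ cells at 4 dpa and 40.5 and 49.4 CPM at 0 dpa, against 90.5 and 137 CPM at 4 dpa and 420.4 and 466 CPM at 0 dpa in sp7- cells. The sp7+ libraries of the 2 times overlapped, the sp7- libraries did not, and the difference was 1.80 ± 0.36 (edgeR adjusted p = 0.0144). ITGB4 (1.67 ± 0.46, edgeR adjusted p = 0.0461) and the tight junction claudin gene cldna (1.73 ± 0.35, edgeR adjusted p = 0.0151) showed the same shape, with sp7+ changes of -0.04 and -0.02 and sp7- changes of -1.70 and -1.75. tjp1a, the scaffold ZO-1 of tight junctions, was lower (-1.26 ± 0.30, edgeR adjusted p = 0.0283). The krt4 and krt93 calls held without each library, krt222 lost its call without sp7- 4 dpa library 2 and itga6b without sp7- 4 dpa library 1, cldna without either, and ITGB4 and tjp1a kept theirs in 2 of the 8 fits each. Called junction genes numbered from 0 (without sp7- 4 dpa library 1) to 15 (without sp7+ 0 dpa library 2), and called keratins from 2 to 5.

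Immediate early genes, which respond quickly to injury and to cell dissociation, had mostly negative differences. Of 15 AP-1 subunits, 12 decreased in sp7+ and 11 in sp7- cells, against 26.4% and 23.3% of all tested genes. Of the 15, 3 were called lower and 1 higher (26.7%, against 7.91% of all genes). jun was at 1643 and 1916 CPM in sp7+ cells at 4 dpa and 7713 and 5210 CPM at 0 dpa, against 1888 and 1989 CPM at 4 dpa and 1413 and 909 CPM at 0 dpa in sp7- cells. The sp7+ 0 dpa libraries were the highest, jun decreased in sp7+ cells and increased in sp7- cells, and the difference was -2.60 ± 0.40 (edgeR adjusted p = 0.00477). ATF3, a stress-induced partner of jun, was at 101 and 51.9 CPM in sp7+ cells at 4 dpa and 329.8 and 129 CPM at 0 dpa, against 157 and 124 CPM at 4 dpa and 109 and 55.1 CPM at 0 dpa in sp7- cells (difference -2.36 ± 0.62, edgeR adjusted p = 0.0399). The 2 sp7+ 0 dpa libraries were far apart for this gene, and DESeq2 did not call it. fosab fell in both populations and more in sp7+ cells (-1.18 ± 0.33, edgeR adjusted p = 0.0481). Its symbol is borne by 2 identifiers with similar counts, so its level is uncertain, and the block by replicate number ended its call. batf, a leukocyte AP-1 factor in mammals, was called higher (2.26 ± 0.63, edgeR adjusted p = 0.0485) at under 3 CPM, and DESeq2 and the block by replicate number did not call it. Of 50 other immediate early and stress genes, 13 had a positive difference, 1 was called higher, MYC (1.25 ± 0.32, edgeR adjusted p = 0.0376), and 3 lower, among them hspb1, a small heat shock protein gene, which rose in both populations (2.20 and 4.38, difference -2.17 ± 0.52, edgeR adjusted p = 0.028), and ier2b (-1.42 ± 0.38, edgeR adjusted p = 0.0421). The block within time points called 3 higher and 15 lower of these 50, against 10.6% and 7.59% of all genes. Dissociation differed between 0 and 4 dpa, and its part in these values was not tested. jun was called in every fit without 1 library, and ATF3, fosab, batf, MYC, hspb1 and ier2b in 3, 1, 1, 1, 4 and 2 of the 8. Called AP-1 subunits numbered from 1 to 4 in these fits, and the other immediate early and stress genes, 8.0% called with all libraries, from 0 (without either sp7- 4 dpa library) to 8 (without sp7+ 0 dpa library 2).

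Of the Fgf pathway, 4 of 42 tested genes were called lower and 2 higher (14.3%, against 7.91% of all genes). Without sp7- 4 dpa library 1 these were 1 lower and 1 higher, and without library 2 of that group 0 lower and 1 higher. dusp6, a MAP kinase phosphatase that Fgf signaling induces and that restrains it, was at 57.8 and 68.8 CPM in sp7+ cells at 4 dpa and 216 and 197 CPM at 0 dpa, against 99.7 and 113 CPM at 4 dpa and 109.7 and 103 CPM at 0 dpa in sp7- cells. It fell in sp7+ cells, its sp7- libraries overlapped, and the difference was -1.71 ± 0.29 (edgeR adjusted p = 0.00757). spry2, a sprouty inhibitor (-1.04 in sp7+ and 0.66 in sp7- cells, difference -1.70 ± 0.42, edgeR adjusted p = 0.032), and il17rd, the membrane inhibitor Sef (0.05 and 1.57, difference -1.52 ± 0.33, edgeR adjusted p = 0.0211), had the same sign. fgfbp2a, an Fgf binding protein gene, was far higher in sp7+ cells throughout, at 61.9 and 74.1 CPM at 4 dpa and 137 and 124 CPM at 0 dpa, against 2.53 and 1.84 CPM at 4 dpa and 1.38 and 1.57 CPM at 0 dpa in sp7- cells (difference -1.51 ± 0.33, edgeR adjusted p = 0.0209). dusp6 lost its call without sp7- 4 dpa library 2, and spry2, il17rd and fgfbp2a kept theirs in 4, 3 and 4 of the 8 fits.

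In the BMP and activin pathway 6 of 81 tested genes were called higher and 1 lower (8.6%, near the 7.91% of all genes), and the median difference was 0.36. Called genes numbered 3 without either sp7- 4 dpa library and 23 without sp7+ 0 dpa library 2. inhbb, a subunit of the ligand activin B, was at 45.1 and 52.4 CPM in sp7+ cells at 4 dpa and 9.23 and 14 CPM at 0 dpa, against 5.19 and 5.31 CPM at 4 dpa and 9.91 and 10.6 CPM at 0 dpa in sp7- cells. The populations lay apart at 4 dpa and overlapped at 0 dpa, the changes passed the test in opposite directions, and the difference was 3.04 ± 0.34 (edgeR adjusted p = 0.0012). inhbab, an activin A subunit gene chosen after its values were seen, was higher too (1.59 ± 0.41, edgeR adjusted p = 0.037). bmpr1ba, a BMP receptor, increased in sp7+ cells (1.1) and decreased in sp7- cells (-1.56, difference 2.65 ± 0.39, edgeR adjusted p = 0.00367), and the antagonist nog3, given above, did the reverse. The inhbb, bmpr1ba and nog3 calls held without each library, and that of inhbab in 3 of the 8 fits. Of 72 Wnt pathway genes, the block within time points called 6 higher and 7 lower, against 10.6% and 7.59% of all genes. Without that block, 2 of the 72 were called higher and 1 lower (4.2%, below the 7.91% of all genes). The higher ones were the secreted inhibitors frzb (2.52 ± 0.48, edgeR adjusted p = 0.0126) and SFRP1 (1.59 ± 0.36, edgeR adjusted p = 0.0228). The symbol SFRP1 is also borne by another identifier that was not called. The lower one was notum1a, a secreted enzyme that inactivates Wnt ligands (-2.93 ± 0.59, edgeR adjusted p = 0.0153). notum1a was at 20.9 and 19.7 CPM in sp7+ cells at 4 dpa and 14.8 and 37.6 CPM at 0 dpa, against 2.73 and 4.33 CPM at 4 dpa and 0.724 and 0.483 CPM at 0 dpa in sp7- cells. Of 22 Hedgehog pathway genes, scube2, which helps release Hedgehog ligand, was the 1 called (4.5%, below the 7.91% of all genes). It rose less in sp7+ cells (-1.89 ± 0.41, edgeR adjusted p = 0.0207). frzb lost its call without sp7- 4 dpa library 2, and SFRP1, notum1a and scube2 kept theirs in 4, 5 and 4 of the 8 fits.

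Retinoic acid, made from vitamin A, acts in patterning of the regenerating fin. Of 24 tested genes of its pathway 5 were called higher and 1 lower (25%, against 7.91% of all genes), with a median difference of 0.60. Called genes numbered 0 without either sp7- 4 dpa library and 10 without sp7+ 0 dpa library 2. cyp26a1, which degrades retinoic acid, was at 30.3 and 21.2 CPM in sp7+ cells at 4 dpa and 4.7 and 6.62 CPM at 0 dpa, against 71 and 92.4 CPM at 4 dpa and 53.7 and 73.3 CPM at 0 dpa in sp7- cells (difference 1.82 ± 0.38, edgeR adjusted p = 0.0173). Its sp7+ libraries of the 2 times lay apart, and its sp7- libraries overlapped. CYP26C1, a related enzyme (1.49 ± 0.39, edgeR adjusted p = 0.039), the synthesis gene RDH10 (2.12 ± 0.45, edgeR adjusted p = 0.0181) and the binding protein gene CRABP2 (1.85 ± 0.34, edgeR adjusted p = 0.0101) were higher. The symbol RDH10 is also borne by another identifier, which is not described here. The receptor gene rarab was lower (-1.47 ± 0.35, edgeR adjusted p = 0.0263). cyp26a1 and CRABP2 lost their calls without either sp7- 4 dpa library, and RDH10, CYP26C1 and rarab kept theirs in 4, 3 and 2 of the 8 fits.

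Semaphorins and their plexin and neuropilin receptors, guidance molecules of nerves and vessels that also act in bone, held 9 called higher and 2 lower of 45 tested, 24.4% against 7.91% of all genes. The number called ran from 3 (without sp7- 4 dpa library 1) to 13 (without either sp7+ 0 dpa library). The block within time points called 11 higher and 9 lower, against 10.6% and 7.59% of all genes. The genes named below had the largest absolute differences of the list, so the 2 lower ones are not named. plxnb2b was at 12.1 and 11.8 CPM in sp7+ cells at 4 dpa and 5.64 and 8.13 CPM at 0 dpa, against 14 and 15 CPM at 4 dpa and 39.7 and 33.5 CPM at 0 dpa in sp7- cells. Its level went up in sp7+ cells and down in sp7- cells, which brought the populations closer, with a difference of 2.13 ± 0.33 (edgeR adjusted p = 0.00453). PLXNA4 differed by 2.19 ± 0.35 (edgeR adjusted p = 0.0059), through a decrease in sp7- cells of -1.68, and PLXNB1 by 2.03 ± 0.37 (edgeR adjusted p = 0.0106), through an increase in sp7+ cells of 1.58. Of the ligands, SEMA3A rose in sp7+ cells (1.80) and had a change of -0.23 in sp7- cells (difference 2.04 ± 0.33, edgeR adjusted p = 0.00599), and sema4ab changed in opposite directions (1.87 ± 0.32, edgeR adjusted p = 0.00815). PLXNB1 and sema4ab lost their calls without either sp7- 4 dpa library, and the others held. Ephrin and Notch pathway genes had 6 called higher and 3 lower of 55 (16.4%), with 0 and 1 called without sp7- 4 dpa library 1 and library 2 and 12 without sp7+ 0 dpa library 2. Among them heyl, a Notch target, was at 33.4 and 35.6 CPM in sp7+ cells at 4 dpa and 4.62 and 8.81 CPM at 0 dpa, against 0.652 and 0.511 CPM at 4 dpa and 0.661 and 0.338 CPM at 0 dpa in sp7- cells (difference 2.09 ± 0.54, edgeR adjusted p = 0.0365). dld, a Delta ligand (2.39 ± 0.66, edgeR adjusted p = 0.0471), and the Eph receptor gene epha2b (1.72 ± 0.31, edgeR adjusted p = 0.0103) were higher, and epha4l lower (-2.17 ± 0.46, edgeR adjusted p = 0.0177). The calls of heyl, dld, epha2b and epha4l held in 2, 1, 7 and 3 of the 8 fits, and dld also lost its call with the block by replicate number or a filter of 10 counts in 4 libraries.

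Cytokines, chemokines and their receptors had 17 called higher and 3 lower of 114 tested (17.5%, against 7.91% of all genes), with a median difference of 0.75. Called genes numbered 5 and 1 without sp7- 4 dpa library 1 and library 2 and 22 without sp7+ 0 dpa library 2. Past the test of each change, 34 of the 114 decreased in sp7+ cells and 59 in sp7- cells, against 26.4% and 23.3% of all tested genes. il34, a ligand of the macrophage receptor csf1r, was at 2.23 and 1.75 CPM in sp7+ cells at 4 dpa and 0.754 and 0.837 CPM at 0 dpa, against 1.38 and 1.06 CPM at 4 dpa and 4.28 and 2.7 CPM at 0 dpa in sp7- cells. It changed in opposite directions, with a difference of 2.83 ± 0.49 (edgeR adjusted p = 0.00815). tnfrsf9a, a TNF receptor family gene (2.61 ± 0.60, edgeR adjusted p = 0.0247), was higher, and so was lifrb, a receptor for cytokines of the interleukin 6 family, chosen after its values were seen (2.01 ± 0.55, edgeR adjusted p = 0.0461). The chemokine gene ccl20b was lower, at 0.442 and 0.389 CPM in sp7+ cells at 4 dpa and 8.52 and 5.3 CPM at 0 dpa, and held at most 3 counts per library in sp7- cells at 0 dpa (edgeR adjusted p = 0.031). It went against most called genes of its family. Of 16 tested genes with a ccl symbol, 4 were called higher and 1 lower (31.2%), with a median difference of 2.04. il34 lost its call without sp7- 4 dpa library 2, and tnfrsf9a, lifrb and ccl20b kept theirs in 4, 1 and 1 of the 8 fits. lifrb also lost it with a filter of 10 counts in 4 libraries. Of 21 tested leukocyte markers 0 were called by edgeR or by DESeq2, and 3 had an unadjusted p under 0.05. Their summed level, mostly cd74a and cd74b (class II antigen presentation), was 3193 and 3032 CPM in sp7+ cells at 4 dpa and 24224 and 18387 CPM at 0 dpa, against 1332 and 1446 CPM at 4 dpa and 5062 and 5093 CPM at 0 dpa in sp7- cells. The sum was higher in sp7+ than in sp7- libraries at both times, and lower at 4 dpa than at 0 dpa in both populations. Its part in the cytokine values was not tested.

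Transcription factors were chosen by symbol for limb and fin development. Of 58 tested, 34 increased in sp7+ and 36 in sp7- cells, against 30.0% and 22.2% of all tested genes. In edgeR 7 had a lower and 0 a higher difference (12.1% called, against 7.91% of all genes). The median was -0.13 (-0.48 to 0.14 over all settings). Without sp7- 4 dpa library 1 there were 0 called, and without sp7+ 0 dpa library 2 there were 3 higher and 8 lower. lmx1ba, a LIM homeobox gene, was at 5.84 and 7.52 CPM in sp7+ cells at 4 dpa and 1.69 and 2.03 CPM at 0 dpa, against 6.03 and 4.62 CPM at 4 dpa and 0.252 and 0.29 CPM at 0 dpa in sp7- cells (difference -2.44 ± 0.45, edgeR adjusted p = 0.011). prrx1b, a paired-related homeobox gene of mesenchyme, rose in both, by 1.56 and 3.81 (difference -2.25 ± 0.62, edgeR adjusted p = 0.047). SOX9, the cartilage regulator, was at 16.5 and 21.9 CPM in sp7+ cells at 4 dpa and 39 and 22.8 CPM at 0 dpa, against 78.5 and 98.3 CPM at 4 dpa and 41 and 24.8 CPM at 0 dpa in sp7- cells (difference -2.11 ± 0.43, edgeR adjusted p = 0.0162). Its increase was in sp7- cells. TBX1 changed in opposite directions (-2.31 ± 0.48, edgeR adjusted p = 0.0165). dlx3b (-1.53 ± 0.33, edgeR adjusted p = 0.0186) and dlx4b (-2.07 ± 0.36, edgeR adjusted p = 0.00894) were the distal-less genes among the 7, named after their values were seen, and the remaining one, tbx21, is a T-box gene of lymphocytes in mammals (-2.18 ± 0.46, edgeR adjusted p = 0.0179). The block within time points called 2 higher and 13 lower, against 10.6% and 7.59% of all genes. lmx1ba and dlx4b lost their calls without sp7- 4 dpa library 1, prrx1b kept its call in 1 of the 8 fits and lost it with the block by replicate number, and SOX9, TBX1, dlx3b and tbx21 kept theirs in 5, 6, 4 and 5. Of 29 tested Hox genes, 15 increased in sp7+ and 18 in sp7- cells, against 30.0% and 22.2% of all tested genes. Their difference was called for 0 by edgeR or DESeq2, with an unadjusted p under 0.05 for 3.

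**Figure D5:**
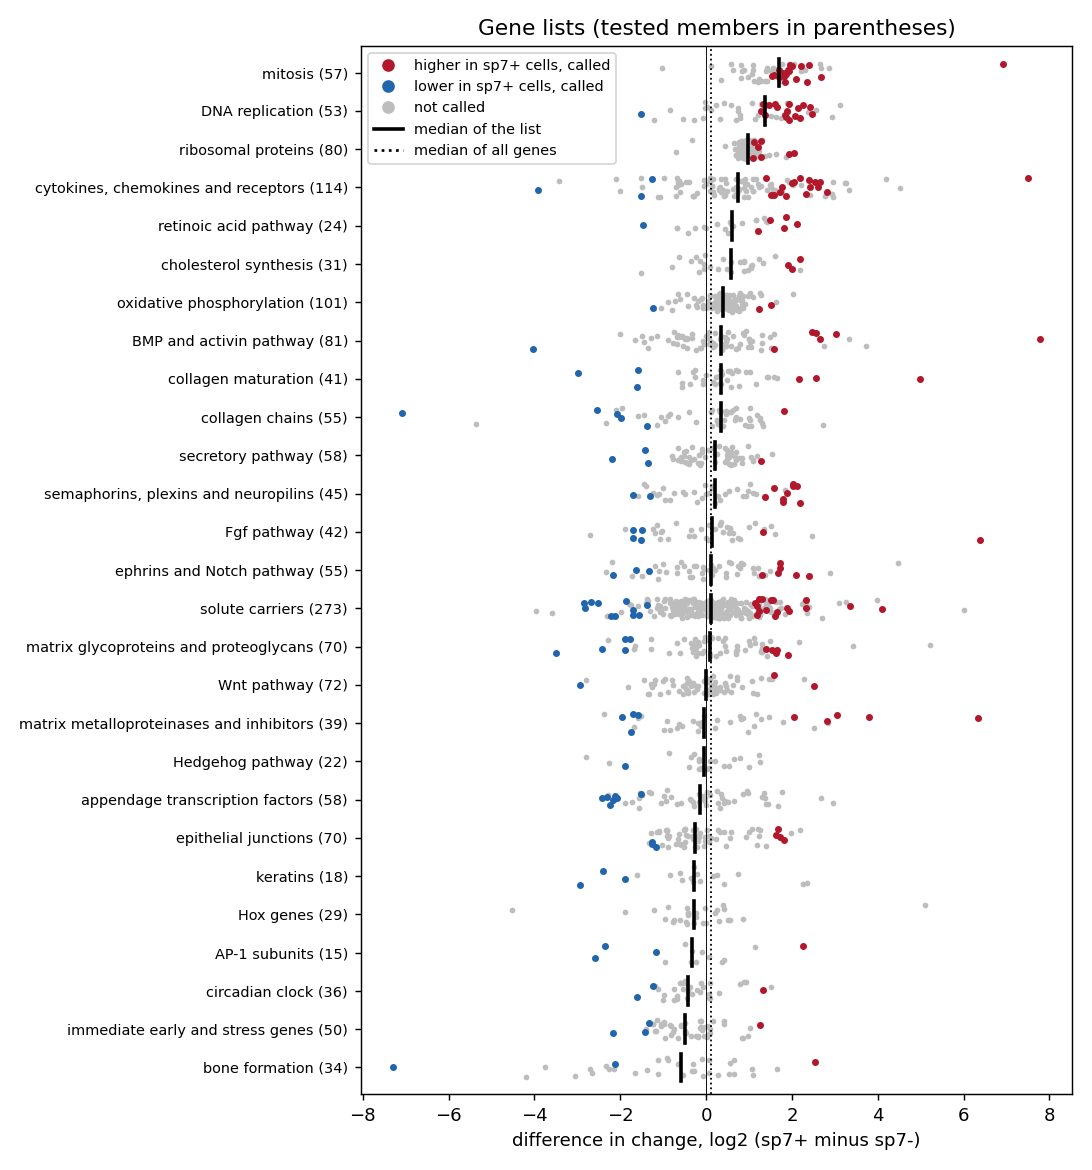
Difference in change (log2, sp7+ minus sp7-, horizontal axis) of the tested members of 27 gene lists, 1 point a gene, ordered by the list's median. The median was 1.69 for mitosis genes at the top and -0.59 for bone formation genes at the bottom, with 0.12 for all genes.

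The lists of cholesterol synthesis, solute carriers, the secretory pathway and clock genes had shares of 6.9% to 10.3% called, against 7.91% of all genes. Of 31 cholesterol synthesis genes, 19 decreased in sp7+ and 25 in sp7- cells, against 26.4% and 23.3% of all tested genes. The 3 called (9.7%) were all higher and encode enzymes of the sterol branch. They were hsd17b7 (1.91 ± 0.35, edgeR adjusted p = 0.0108), sqlea (2.01 ± 0.52, edgeR adjusted p = 0.0378) and TM7SF2 (2.18 ± 0.52, edgeR adjusted p = 0.0275). hsd17b7 was at 1.12 and 1.34 CPM in sp7+ cells at 4 dpa and 7.1 and 5.46 CPM at 0 dpa, against 1.27 and 1.53 CPM at 4 dpa and 26.1 and 27.7 CPM at 0 dpa in sp7- cells, falling in both. Of 273 solute carriers, 17 were called higher and 11 lower. slc4a10a, a sodium bicarbonate transporter, changed in opposite directions (1.99 in sp7+ and -2.11 in sp7- cells, edgeR adjusted p = 0.00815 for the difference), slc43a3b was lower (-2.86 ± 0.43, edgeR adjusted p = 0.00433), and slc26a2, the sulfate transporter of cartilage, was lower as well. slc4a10a did not reach the mean of 1 CPM in each population that the naming conditions ask for, so its fitted changes rest on low levels. slc26a2 was at 3.88 and 2.7 CPM in sp7+ cells at 4 dpa and 28.6 and 15.5 CPM at 0 dpa, against 0.621 and 0.84 CPM at 4 dpa and 0.629 and 0.724 CPM at 0 dpa in sp7- cells (difference -2.83 ± 0.51, edgeR adjusted p = 0.00969). Of 58 genes of the secretory pathway 1 was called higher and 3 lower, among them sec23b, a coat subunit of vesicles leaving the endoplasmic reticulum (-2.93 in sp7+ and -1.5 in sp7- cells, edgeR adjusted p = 0.024 for the difference). Of 36 clock genes 1 was higher, arntl2 (1.33 ± 0.32, edgeR adjusted p = 0.0299), and 2 lower, among them cry5, a cryptochrome (-1.61 ± 0.41, edgeR adjusted p = 0.0355). slc4a10a and slc43a3b were called without each library, slc26a2 lost its call without sp7- 4 dpa library 2, hsd17b7 without either sp7- 4 dpa library, and sqlea, TM7SF2, sec23b, arntl2 and cry5 kept theirs in 3, 4, 2, 2 and 2 of the 8 fits.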

How the data were processed

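The authors dissociated caudal fins of Tg(sp7:EGFP) fish, sorted EGFP+ and EGFP- cells, and sequenced RNA with a TruSeq RNA kit that does not mark strand, so a gene and its antisense partner cannot be told apart. Reads with several alignments were dropped, which lowers counts of genes with near-identical copies, ribosomal proteins and paralogs among them. The submitters' processing notes name bcl2fastq, STAR 2.5.2a, featureCounts 1.5.0 and the GRCz10 assembly. The deposited table held whole-number read counts per gene (32105 genes), not normalized, and the 8 sorted libraries, of 28906309 to 50312755 counts, were used with groups taken from the labels. Where nothing shows that pooled fins were separate experiments, p-values measure only the spread between these libraries.

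Genes were filtered with filterByExpr, scaled by TMM and fitted with edgeR 4.0.16 (quasi-likelihood, R 4.3.3). Benjamini-Hochberg adjustment ran over all 18641 genes tested, at 0.05. CPM are TMM-scaled. On simulated counts for this comparison, 2 of 200 genes with a 2-fold, 175 of 200 with a 4-fold and 197 of 200 with an 8-fold difference were recovered (17858, 17829 and 17867 genes tested). DESeq2 1.42.0, limma 3.58.1 and Python 3.11.15 with pandas 2.3.3 and matplotlib 3.10.9 were also used. Alternatives were DESeq2, its size factors, no filter, 10 counts in 4 libraries, a false discovery rate of 0.01, a test against a 1.5-fold difference, replicate blocks and leaving out each library. Residuals of same-numbered sp7+ and sp7- libraries correlated across genes with r = 0.13 at 4 dpa and 0.262 at 0 dpa, and between -0.225 and -0.007 for the remaining pairs of groups; the methods describe both populations of a replicate as sorted from the same fins, and the paired fit therefore has a replicate block inside each time point.

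The members and lists were chosen with earlier results of these data known, and no set test was run. Named genes were the 10 largest positive and 10 largest negative differences and the 6 largest of opposite change in each direction (called, with a symbol, the same sign in all 16 choices of 1 library per group, and a mean of 1 CPM or more at a time point in each population), up to 5 called members of each list, sp7 and leading markers. Genes outside this rule are said to be chosen after their values were seen. All 869 genes called higher and all 605 called lower had the same sign in all 16 choices, so that condition removed no called gene. Name patterns that took in unrelated genes (KRTCAP2, BMP2K, FGFR1OP2, rps6kal, KL) were removed from the lists. Symbols, for 94.7% of tested genes, came from tables of the study (4884 genes) or a reference table (12775 genes). Sequences and coordinates were not used here.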

Additional observations from a re-analysis of the deposited data

Results flagged for a closer look

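Effects of the same contrast, 4 over 0 dpa, differed between sp7+ and sp7- cells for 1474 genes, by the test of the difference itself, and for 166 of these both changes also passed the test with opposite signs. Of the genes named by the rule for opposite change, the log2 difference (sp7+ minus sp7-) was positive for fgf13b (6.39), wu:fc46h12 (4.29), NOCT (4.22), blnk (3.70), HS6ST3 (3.62) and hs3st3b1a (3.62). It was negative for bglapl (-7.30), col14a1a (-7.08), OTTDARG00000042301 (-6.49), acta1a (-5.35), nog3 (-4.04) and ARHGAP28 (-4.00). These 12 genes were called by edgeR in all 8 fits that left out 1 library. The size for fgf13b rested on sp7+ 0 dpa libraries at 0 and 0.159 CPM and was 5.48 to 11.37 in those fits. With 2 libraries a group, no library could be tested as standing apart from its group.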

How the results depend on the processing

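The count of genes whose change differed moved from 1474 to 2715 with no filter (26431 genes tested), 223 at a false discovery rate of 0.01, 411 against a 1.5-fold difference and 3391 with the replicate block within each time point, which pairs sp7+ and sp7- libraries and called all 1474 among them. Genes of opposite change numbered 166, and 42 at a false discovery rate of 0.01, where genes changed in sp7- cells fell to 5586, against 8478 at 0.05. A replicate block by number over all groups called 1420 genes, 153 of opposite change. Without 1 library, genes whose change differed ranged from 226 to 2553, genes of opposite change from 44 to 228, genes changed in sp7+ cells from 8458 to 10655 (10528 with all libraries) and genes changed in sp7- cells from 5156 to 9262. The lone library of a group was then assumed to vary like the others. The lowest counts of genes whose change differed came without either sp7- 4 dpa library, and the cause was not tested. Log2 levels of that group's libraries correlated with r = 0.992, against 0.974 to 0.983 in the other groups. In each fit all groups shared the same estimate of spread, and the part of this in the lowest counts was not tested. DESeq2's size factors gave 1586 genes (51.4% higher in sp7+ cells, against 59.0%) and DESeq2 gave 2071 (49.8% higher), with a median difference over all genes of 0.03 under both, against 0.12. A filter of 10 counts in 4 libraries gave 1476. Of 127 called genes named in the text, 38 were called in every fit without 1 library and 41 in at most 3 of 8, and 0 changed direction in any setting. The block within time points was not run for the changes within each population, nor was the 1.5-fold test. Differences of 2-fold were seldom recovered at this number of libraries on simulated counts (2 of 200). Only 200 genes were changed there, which makes the adjusted p harder to pass than here, so the rate may not carry over.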

Other observations

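Gene families defined by a shared symbol stem were picked after their values were seen from among all such stems, many of which had 0 called members, and are set against the 7.91% of all genes that were called. Of 8 tested thrombospondin genes, which encode matrix glycoproteins, 4 were called higher in sp7+ cells and 0 lower (50.0%). Thrombospondin genes also stand in the list of matrix glycoproteins above. The symbol THBS1 is borne by more than 1 identifier, so the count is of identifiers. Of 21 aldehyde dehydrogenase genes, 5 were higher and 0 lower (23.8%). Translation initiation factor genes (eif) had 7 higher and 1 lower of 64 (12.5%), and DEAD-box helicase genes (ddx) 5 higher and 0 lower of 33 (15.2%). Ubiquitin-specific protease genes (usp) had 1 higher and 5 lower of 46 (13.0%).

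The remaining cell types were described by their marker lists, with 7.91% of all genes called. Of 8 nerve and glia markers, sox10, a neural crest transcription factor, was higher, and erbb3b, a neuregulin receptor of glia, was lower (25% of the list), and each kept its call in 2 of 8 fits without 1 library. Of 14 pigment cell markers, gch2, an enzyme of pteridine synthesis, was higher (7.1%), by 2.53 on the log2 scale (edgeR adjusted p = 0.0159), and kept its call in 5 of 8 fits. Of 5 red blood cell markers, SLC4A1, the anion exchanger band 3, was lower (20%), by -2.51 (edgeR adjusted p = 0.0409), and kept its call in 2 of 8. Of 12 endothelial markers 0 were called by edgeR or DESeq2, and 0 had an unadjusted p under 0.05. Of 11 mucous cell and ionocyte markers 0 were called by edgeR, 2 by DESeq2, and 2 had an unadjusted p under 0.05.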
